A study of Mus musculus with 3 samples.

Results

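The genes described here are 28 genes of cholesterol synthesis and of its control by the sterol regulatory element binding proteins (SREBPs), read in MDSCs (myeloid-derived suppressor cells) cultured from mouse marrow. MDSCs are myeloid cells that have not matured and that hold T cell responses down. The genes were chosen by symbol from a table of 57561 rows, of which 20649 are Ensembl genes. All 28 had a row, and each symbol had 1 row. Transcript levels were measured by RNA sequencing in 3 libraries, 1 from lnc57Rik-/- mice (lnc57Rik KO), 1 from lncGM1082-/- mice (lncGM1082 KO) and 1 from wild-type mice (WT), all of the C57BL/6 strain. Both deleted targets are named as long noncoding RNAs (lnc). Femur marrow cells of every genotype were cultured for 4 days with GM-CSF and IL6, so the libraries share this treatment and all of them come from cultured cells. The growth protocol names C57BL/6 and lnc57Rik KO mice only. The labels do not say how the alleles were made, how old the mice were or whether animals were pooled.

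Cholesterol is built from acetyl-CoA in the cytosol and the endoplasmic reticulum. Mevalonate is formed and turned into isoprenoid diphosphates, which either feed protein prenylation or are joined to squalene. Squalene is closed to lanosterol, and lanosterol is trimmed to cholesterol. When sterols in the endoplasmic reticulum run low, the escort protein Scap carries the SREBPs to the Golgi, where they are cut and released to switch on these genes, while the Insig proteins hold Scap back when sterols are plentiful. Srebf2 encodes the form that mainly drives cholesterol synthesis, and Srebf1 encodes forms that mainly drive fatty acid synthesis. In macrophages and other myeloid cells the pathway also responds to inflammatory signals and to cholesterol taken up from outside.

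SREBPs bind sterol regulatory elements near the start sites of their target genes, often beside CCAAT boxes bound by NF-Y and GC boxes bound by Sp1. Promoters of 4 genes on which the comparisons turn are printed to show where these elements lie. Hmgcs1 had the lowest log2 fold in the lncGM1082 KO library. Mvk had intervals on opposite sides of 1 in the 2 knockouts, as did Idi1, Lss, Cyp51, Lbr, Fasn and Acly. Hsd17b7 had the lowest ratio in the lnc57Rik KO library, and Fasn the highest ratio there among the other SREBP targets. They are RefSeq promoters on GRCm38.p6, printed in the direction of the gene and ending at the base before the RefSeq start, except that bases inside the GENCODE M21 gene were left off for Hsd17b7. Capitals mark matches to the sterol regulatory element TCACNCCAC, the CCAAT box CCAAT and the GC box GGGCGG, searched on both strands, so that the reverse forms ATTGG and CCGCCC are in capitals too. In Fasn a forward and a reverse CCAAT box run together with shared bases. The windows are chr13:119690101-119690350 on the plus strand for Hmgcs1, chr5:114444019-114444268 on the plus strand for Mvk, chr1:169969242-169969455 on the minus strand for Hsd17b7 and chr11:120824548-120824797 on the minus strand for Fasn.
Hmgcs1: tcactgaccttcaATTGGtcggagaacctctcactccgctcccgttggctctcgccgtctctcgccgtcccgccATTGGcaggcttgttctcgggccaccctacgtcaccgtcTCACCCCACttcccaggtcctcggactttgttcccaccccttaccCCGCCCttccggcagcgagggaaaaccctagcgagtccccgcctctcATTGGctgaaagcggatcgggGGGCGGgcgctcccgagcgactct
Mvk: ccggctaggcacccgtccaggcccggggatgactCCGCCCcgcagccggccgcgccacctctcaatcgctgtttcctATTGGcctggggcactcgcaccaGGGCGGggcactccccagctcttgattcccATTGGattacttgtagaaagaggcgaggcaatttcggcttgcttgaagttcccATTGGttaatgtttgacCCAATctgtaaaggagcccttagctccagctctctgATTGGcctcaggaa
Hsd17b7: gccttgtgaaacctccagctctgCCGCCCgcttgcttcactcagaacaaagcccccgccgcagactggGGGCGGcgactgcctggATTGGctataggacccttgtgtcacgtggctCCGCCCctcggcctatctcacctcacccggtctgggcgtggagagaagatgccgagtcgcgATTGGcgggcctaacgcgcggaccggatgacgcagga
Fasn: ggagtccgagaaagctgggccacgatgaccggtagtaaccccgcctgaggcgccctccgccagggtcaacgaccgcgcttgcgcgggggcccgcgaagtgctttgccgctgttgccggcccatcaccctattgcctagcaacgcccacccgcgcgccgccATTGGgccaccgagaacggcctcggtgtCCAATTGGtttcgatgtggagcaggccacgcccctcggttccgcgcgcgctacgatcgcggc

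RefSeq promoters were found for 24 of the 28 genes. Within the 250 bases before the start, the sterol regulatory element TCACNCCAC was present in 1 of the 24, which was Hmgcs1, where it begins 137 bases before the start. It was present in 1.24% of the 8155 genes that had a promoter and a mean of at least 1 FPKM. Its shorter core CACNCCAC, which lies inside the longer motif, was present in 3 of the 24, Acat2, Hmgcs1 and Insig1, and in 6.61% of the expressed genes. The CCAAT box was present in 21 of the 24, all but Acat2, Scap and Acly, and in 40.3% of the expressed genes. The GC box was present in 21 of the 24 and in 63.9% of the expressed genes. A match describes letters and is not a binding site, and sites outside this window were not searched.

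Most of the pathway was expressed at moderate levels in every library, and levels differed far more between genes than between genotypes. Over the 28 genes, FPKM (fragments scaled to transcript length and library size) had a median of 15.4 in the lnc57Rik KO library (range 0.271 to 91.0), 13.3 in the lncGM1082 KO library (0.284 to 64.1) and 16.05 in the WT library (0.164 to 68.8). Summed over the 28 genes, FPKM was 652 in the lnc57Rik KO library, 524 in the lncGM1082 KO library and 582 in the WT library. The lnc57Rik KO library had the highest level of 20 genes and the lncGM1082 KO library the lowest level of 22. Among 12041 Ensembl rows with a mean of at least 1 FPKM, the highest ranks in WT were those of Acly at 579, Mvd at 634, Hmgcs1 at 729 and Srebf2 at 744.

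**Figure D1:**
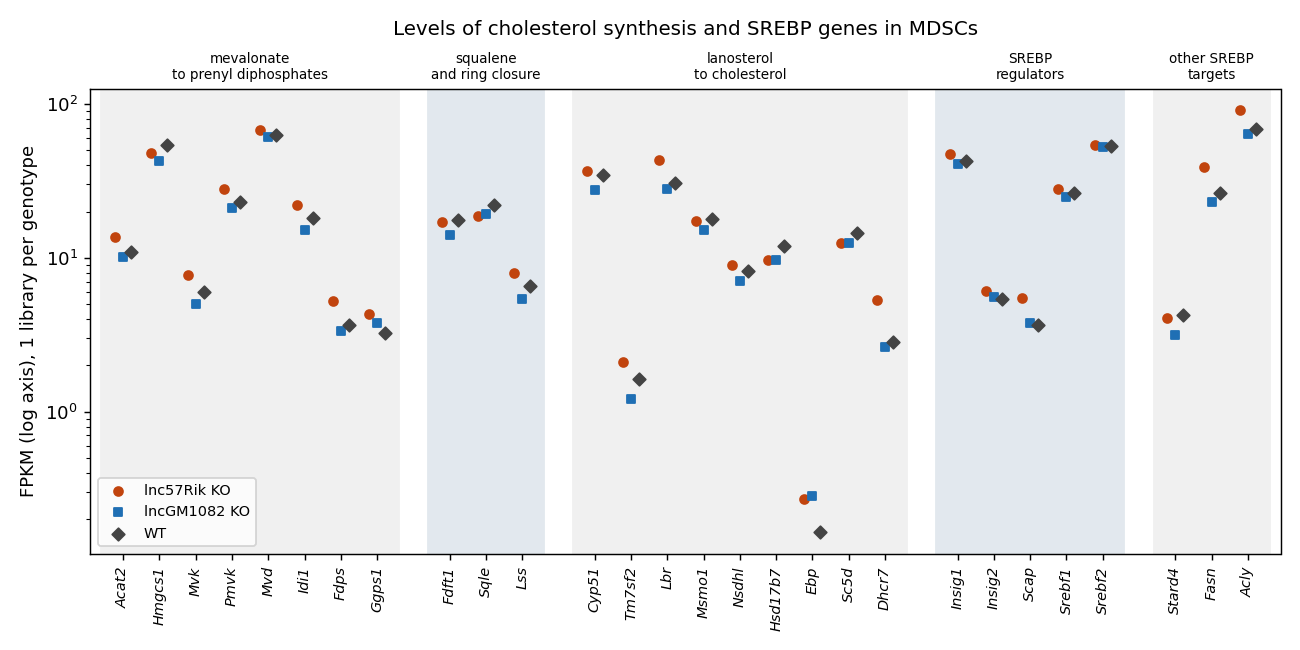
FPKM on a log axis of each of the 28 genes, grouped by step of the pathway, with 1 point for each of the lnc57Rik KO, lncGM1082 KO and WT libraries. Levels span from 0.164 FPKM for Ebp in WT to 91.0 FPKM for Acly in the lnc57Rik KO library, and in most genes the lncGM1082 KO point is the lowest of the 3.

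Levels within a step were uneven. In the first step, the mevalonate decarboxylase Mvd had 67.6, 61.5 and 63.1 FPKM in the lnc57Rik KO, lncGM1082 KO and WT libraries, and the synthase Hmgcs1, which makes the precursor of mevalonate, had 48.0, 42.9 and 54.5 FPKM. The mevalonate kinase Mvk had 7.76, 4.99 and 6.03 FPKM in the same order. The prenyl diphosphate synthases were listed at low levels. Fdps, which makes farnesyl diphosphate, had 5.27, 3.37 and 3.68 FPKM, a level made uncertain by a near-identical pseudogene described below. Ggps1, which makes geranylgeranyl diphosphate for protein prenylation, had 4.31, 3.79 and 3.25 FPKM. Among the squalene genes, the squalene synthase Fdft1 had 17.1, 14.1 and 17.5 FPKM, the squalene epoxidase Sqle 18.7, 19.4 and 22.1 FPKM, and the lanosterol synthase Lss 7.94, 5.43 and 6.57 FPKM.

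After lanosterol, the demethylase Cyp51 had 36.6, 27.6 and 34.5 FPKM in the lnc57Rik KO, lncGM1082 KO and WT libraries. Lbr and Tm7sf2 encode paralogous sterol reductases that catalyse the same step, and Lbr is also a receptor for lamin in the inner nuclear membrane. Lbr had 43.1, 28.1 and 30.7 FPKM, against 2.09, 1.203 and 1.63 FPKM for Tm7sf2, so Lbr was the far more abundant of the pair in each library. The sterol isomerase Ebp was the lowest gene of the list, with 11, 12 and 7 fragments, and did not reach a mean of 1 FPKM. Of the SREBP regulators, Insig1 had 47.7, 40.6 and 42.6 FPKM and its paralog Insig2 6.09, 5.56 and 5.37 FPKM. Srebf2 had 54.1, 52.4 and 53.7 FPKM and Srebf1 27.9, 24.9 and 26.3 FPKM, values that lay close together across the genotypes.

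The fragment totals behind the FPKM were 17593434 in the lnc57Rik KO, 18280433 in the lncGM1082 KO and 18485092 in the WT library, and the members other than Ebp and Tm7sf2 rested on 244 to 8450 fragments. Since each genotype has a single library, no difference below has a replicate check and none was tested. Intervals of FPKM ratios are 95% exact binomial (Clopper-Pearson) intervals of the fragments, for genes with whole fragment counts. They cover counting error only and say nothing of differences between mice, cultures or preparations. More fragments give a narrower interval, and the rows set beside the members below were not matched to them in depth. Of the 28 genes, 27 had a mean of at least 1 FPKM, and 26 of these had whole fragment counts and so an interval. Tm7sf2 had none.

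The targeted RNAs do not check the labels. Gm1082 is a RefSeq synonym of Arhgap33os, whose row was listed at 0 FPKM in the lnc57Rik KO, 0.0620 in the lncGM1082 KO and 0.0204 in the WT library, and no symbol ends in 57Rik. Markers of myeloid cells were high in each library. The 10 defining genes of neutrophils and suppressor cells, among them S100a9, summed to 9984 FPKM in the lnc57Rik KO, 6522 in the lncGM1082 KO and 10245 in the WT library, sums carried by S100a8, S100a9 and Ngp. In the lnc57Rik KO library 8 of the 10 were below WT, against 35.8% of Ensembl rows. By an absolute log2 fold of at least 1, 4 were lower, against 1.53% of all rows. The ratios of these 4 were 0.288 for Ly6g, 0.286 for Retnlg, 0.351 for Cxcr2 and 0.489 for Csf3r. Ltf and Ngp were above WT, with ratios of 1.18 (1.15 to 1.20) and 1.02 (1.01 to 1.04). S100a9 had a ratio of 0.997 with an interval that included 1. The 8 B cell markers summed to 135 FPKM in the lnc57Rik KO, 9.23 in the lncGM1082 KO and 6.57 in the WT library, with Igll1 at 0 in the lncGM1082 KO and WT libraries. Of 7 cell cycle genes, all were higher in the lnc57Rik KO library than in WT, against 64.1% of Ensembl rows. The cell cycle genes summed to 208 FPKM in the lnc57Rik KO, 114 in the lncGM1082 KO and 116 in the WT library. Of the suppressive enzymes, Arg1 was below WT in each knockout, with ratios of 0.418 (lnc57Rik KO) and 0.910 (lncGM1082 KO, 0.894 to 0.926). Nos2 was below WT for lnc57Rik KO (ratio 0.480) but above WT for lncGM1082 KO (1.23, 1.21 to 1.24). Arg1 and Nos2 together summed to 687 FPKM in the lnc57Rik KO, 1656 in the lncGM1082 KO and 1512 in the WT library. Monocyte and macrophage markers summed to 1436, 1308 and 2288 FPKM, and of these Lyz2 had 684, 614 and 1450 FPKM and Fn1 48.4, 82.2 and 216 FPKM. In each knockout 5 of the 7 were below WT, against 35.8% and 47.9% of Ensembl rows. The others were Ly6c2 and Adgre1 in the lnc57Rik KO library (ratios of 1.46 and 1.41) and Adgre1 and Cd68 in the lncGM1082 KO library (1.15 and 1.26). Dendritic cell markers summed to 143, 91.5 and 44.5 FPKM in the same order, with Cd209a at 0 in both knockouts. Eosinophil markers summed to 333, 263 and 229 FPKM, and basophil and mast cell markers to 138, 70.9 and 62.4 FPKM. These lists differed between the libraries beside the pathway genes, and their part in the results below was not tested. In bulk RNA, fewer cells of a type and less RNA per cell cannot be told apart.

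In the first comparison lnc57Rik KO cells were set against WT cells. In the lnc57Rik KO library most enzymes of the mevalonate arm and the sterol reductases Dhcr7 and Lbr were higher. So were the escort protein Scap and the fatty acid genes Fasn and Acly, while Hmgcs1, Sqle, Hsd17b7 and Sc5d were lower. A gene was called at an absolute log2 fold of 1, computed on FPKM plus 1, and 0 of 27 members were called. Of all 22202 rows with a mean of at least 1 FPKM, 3.39% were called higher and 1.53% lower by this size. The median log2 fold was 0.16 over the 27 members, 0.10 over Ensembl rows and 0.07 over all rows. The members stood above 0 in 20 of 27 cases, against 58.5% of all rows and 64.1% of Ensembl rows, to which all members belong, and in 16 of 27 under median ratio scaling. The ratio's interval lay above 1 in 16 of 26 members and below 1 in 4, against 39.2% above and 16.9% below among 10996 rows with an interval. Under that scaling, which puts the median of all rows at -0.02 in place of 0.07, the split was 12 above and 7 below, against 28.2% and 25.5% of rows.

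Dhcr7, the reductase that completes cholesterol in one branch of the pathway, had the largest ratio. It stood at 5.31 FPKM in the lnc57Rik KO library, against 2.82 FPKM in WT, a ratio of 1.88 (1.63 to 2.17). On GRCm38 it lies on chromosome 7 from 143823145 to 143848410. Lbr had a ratio of 1.40 (1.33 to 1.48) and Tm7sf2, its low paralog, a ratio of 1.28 with no interval. Cyp51 had a ratio of 1.06 (1.01 to 1.12), and its log2 fold was -0.02 under median ratio scaling. Msmo1, a methylsterol monooxygenase, had 17.4 FPKM in the lnc57Rik KO library and 18.0 FPKM in WT. Nsdhl, a sterol dehydrogenase, had 9.04 and 8.25 FPKM, and the intervals of both genes included 1. Hsd17b7, a sterol ketone reductase, had 9.63 FPKM in the lnc57Rik KO library and 11.9 FPKM in WT, a ratio of 0.807 (0.738 to 0.883). Sc5d, a sterol desaturase, had 12.5 FPKM in the lnc57Rik KO library and 14.6 FPKM in WT, a ratio of 0.855 (0.788 to 0.927).

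In the mevalonate arm, 7 of 8 genes had an interval above 1 and 1 had an interval below 1. Among all rows with an interval the shares were 39.2% above and 16.9% below. The ratios of the 7 ran from 1.07 for Mvd, whose fold changed sign under median ratio scaling, to 1.43 for Fdps, whose level is uncertain. Acat2 had 13.7 FPKM in the lnc57Rik KO library and 10.9 FPKM in WT, Pmvk 28.1 and 23.1 FPKM, and Idi1 22.1 and 18.2 FPKM. The thiolase Acat2, which joins acetyl-CoA units, had a ratio of 1.26 (1.12 to 1.42), Mvk one of 1.29 (1.10 to 1.505), Pmvk, the next kinase, one of 1.22 (1.10 to 1.34), and the isomerase Idi1 one of 1.22 (1.13 to 1.32). Hmgcs1, the exception, had a ratio of 0.882 (0.845 to 0.920). The genes just before lanosterol were split. Fdft1 had a ratio of 0.980 (0.907 to 1.06), Sqle 0.846 (0.795 to 0.900) and Lss 1.21 (1.12 to 1.30).

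Among the regulators, Scap had 5.49 FPKM in the lnc57Rik KO library, against 3.66 FPKM in WT, a ratio of 1.50 (1.34 to 1.69). Insig1 had a ratio of 1.12 (1.06 to 1.18), whose interval included 1 under median ratio scaling, and Insig2 one of 1.13 (0.976 to 1.32). The ratios were 1.06 (1.01 to 1.12) for Srebf1 and 1.007 (0.974 to 1.04) for Srebf2, and the folds of both changed sign under median ratio scaling. Fasn, the fatty acid synthase, had 38.9 FPKM in the lnc57Rik KO library, against 26.3 FPKM in WT, a ratio of 1.48 (1.43 to 1.53). Acly, which supplies cytosolic acetyl-CoA to both sterols and fatty acids, had 91.0 FPKM in the lnc57Rik KO library and 68.8 FPKM in WT, a ratio of 1.32 (1.28 to 1.37). Stard4, a carrier of sterol between membranes, had a ratio of 0.967 (0.842 to 1.11).

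**Figure D2:**
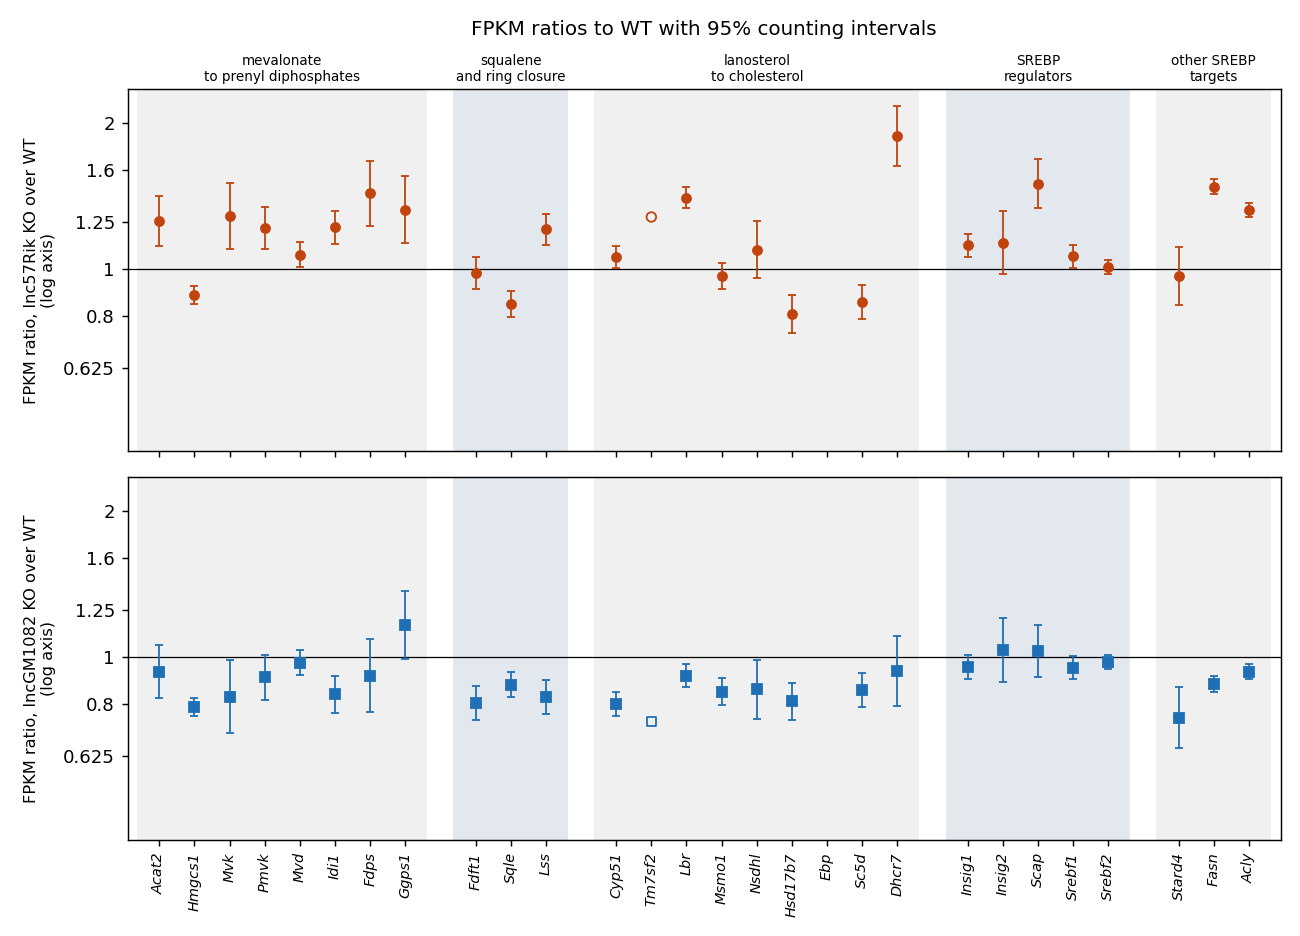
FPKM ratio of the lnc57Rik KO library to WT (upper panel) and of the lncGM1082 KO library to WT (lower panel) for each gene, on a log axis, with 95% counting intervals as bars, Tm7sf2 as an open symbol without an interval, Ebp left out and 1 library per genotype. In the upper panel ratios run from 0.807 for Hsd17b7 to 1.88 for Dhcr7, and in the lower panel 24 of 27 lie below 1.

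In the second comparison lncGM1082 KO cells were set against WT cells. Enzymes along most of the pathway were lower in the lncGM1082 KO library by small amounts. Each of the 11 enzymes from Fdft1 to Dhcr7 with a mean of at least 1 FPKM had a ratio below 1, and the ratios of the SREBP genes lay near 1. By the size of an absolute log2 fold of 1, 0 of 27 members were called, against 0.865% of rows higher and 0.946% lower. The median log2 fold was -0.18 over the members and 0.01 over all rows. Of 27 members 24 were below 0, against 47.8% of all rows. The ratio's interval lay below 1 in 15 of 26 members and above 1 in 0, against 17.1% and 20.3% of rows with an interval. Under median ratio scaling the counts were 19 and 0, against 19.1% and 18.3% of rows. Markers of neutrophils were lower in the same library, in 10 of 10 genes, against 47.9% of Ensembl rows. The part of cell makeup in the lower pathway was not tested.

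Hmgcs1 had 42.9 FPKM in the lncGM1082 KO library, against 54.5 FPKM in WT, a ratio of 0.788 (0.754 to 0.823). It lies on chromosome 13 from 119690379 to 119708260 on GRCm38, beside the promoter printed above. In the mevalonate arm Mvk had a ratio of 0.828 (0.696 to 0.984) and Idi1 one of 0.837 (0.768 to 0.912). The other members of that arm had intervals that included 1, with ratios of 0.932 for Acat2, 0.908 for Pmvk, 0.974 for Mvd, 0.916 for Fdps and 1.16 for Ggps1. Under median ratio scaling the interval of Pmvk lay below 1. The interval of Ggps1, which had the highest ratio once the low gene Ebp was set aside, was 0.990 to 1.37.

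All 3 genes that make squalene and close it had intervals below 1, against 17.1% of all rows with an interval. Fdft1 had a ratio of 0.803 (0.741 to 0.871), Sqle one of 0.877 (0.826 to 0.932) and Lss one of 0.826 (0.761 to 0.896). After lanosterol, 6 of 7 genes with an interval had it below 1, against the same 17.1% of rows. Cyp51 stood at 27.6 FPKM in the lncGM1082 KO library, against 34.5 FPKM in WT, an interval of the ratio of 0.756 to 0.846, and Hsd17b7 at 9.67 FPKM, against 11.9 FPKM in WT, a ratio of 0.810 (0.741 to 0.885). The ratios of Msmo1, Sc5d, Nsdhl and Lbr were 0.848, 0.853, 0.858 and 0.915. Dhcr7 had a ratio of 0.934 with an interval that included 1 (0.791 to 1.10). Tm7sf2 had the lowest ratio of all, 0.736, at a level of 1.203 FPKM in the lncGM1082 KO library and 1.63 FPKM in WT.

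The 5 regulators had ratios from 0.950 for Srebf1 to 1.03 for Insig2, and each interval included 1. The Srebf2 interval, 0.945 to 1.01, was the narrowest of them. Under median ratio scaling the intervals of Insig1, Srebf1 and Srebf2 lay below 1. The 3 other SREBP targets had intervals below 1, against 17.1% of all rows with an interval. Stard4 had 3.17 FPKM in the lncGM1082 KO library and 4.23 FPKM in WT, a ratio of 0.750 (0.647 to 0.868). Fasn had 23.1 FPKM in the lncGM1082 KO library and 26.3 FPKM in WT, a ratio of 0.880 (0.845 to 0.915), and Acly had 64.1 and 68.8 FPKM, a ratio of 0.932 (0.900 to 0.965).

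**Figure D3:**
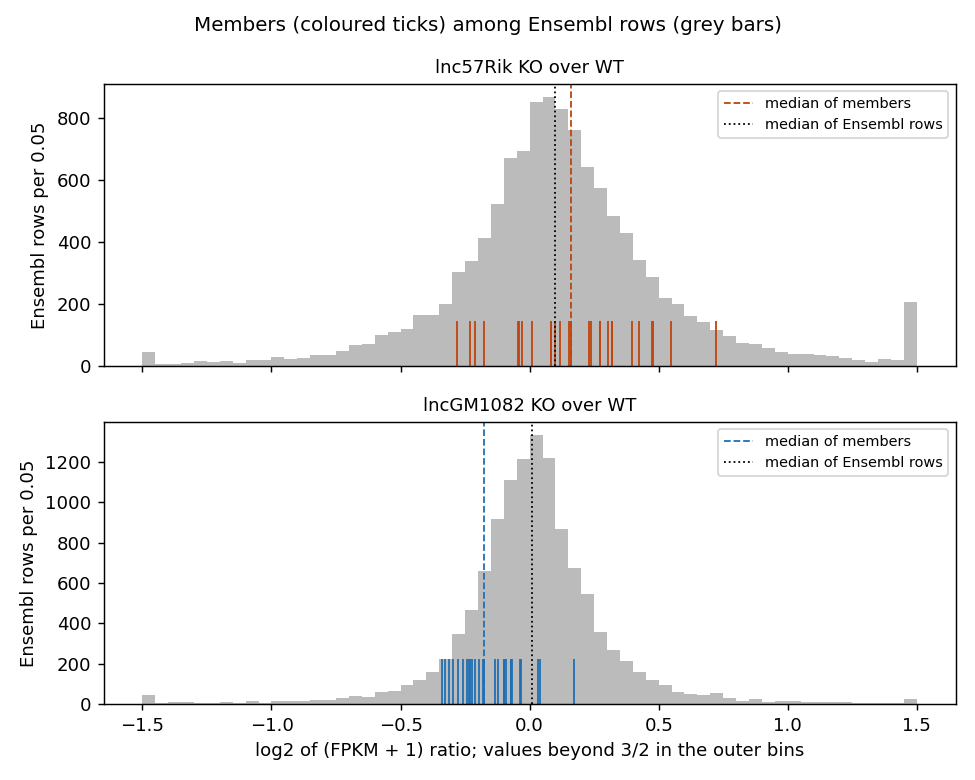
Distribution of log2 (FPKM + 1) ratios over Ensembl rows with a mean of at least 1 FPKM (grey bars, rows per bin of 0.05, values beyond the axis in the outer bins), with each of the 27 members as a coloured tick, for the lnc57Rik KO (upper) and lncGM1082 KO (lower) library over WT. The members' median (dashed) is 0.16 in the upper panel, near that of Ensembl rows (dotted) at 0.10, and -0.18 in the lower panel, where that of Ensembl rows is 0.01.

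The third comparison set the lncGM1082 KO library over the lnc57Rik KO library. It uses the same libraries as the comparisons with WT, so it adds no independent measurement. Of 27 members 25 had a log2 fold below 0, against 57.2% of all rows and 63.2% of Ensembl rows. The median was -0.31 over the members, -0.06 over all rows and -0.10 over Ensembl rows. The interval of the ratio lay below 1 in 20 of 26 members and above 1 in 0, against 38.8% and 17.8% of rows. Computed on FPKM plus 1, none of the members passed a log2 fold of 1, where 1.31% of rows were called higher and 3.07% lower. The added 1 FPKM shrinks the folds of low genes, and that of Dhcr7 was -0.795. Dhcr7 was furthest apart, at 2.63 FPKM in the lncGM1082 KO library and 5.31 in the other knockout, a ratio of 0.496 (0.428 to 0.574). Tm7sf2 followed with a ratio of 0.575 and no interval, and Fasn with one of 0.594 (0.573 to 0.617). Sqle, Hsd17b7 and Sc5d were nearly level between the knockouts, with 19.4 and 18.7 FPKM for Sqle, 9.67 and 9.63 FPKM for Hsd17b7, and 12.46 and 12.48 FPKM for Sc5d in the lncGM1082 KO and lnc57Rik KO libraries. Their intervals were 0.973 to 1.11, 0.913 to 1.10 and 0.917 to 1.09.

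Genes around the pathway were read from 7 lists with 76 symbols, of which 73 had a row and 66 a mean of at least 1 FPKM. Of 3 further enzymes of sterol synthesis, 2 had an interval above 1 in the lnc57Rik KO library, against 39.2% of rows with an interval. In the lncGM1082 KO library 2 had an interval below 1, against 17.1% of such rows. Further SREBP2 targets were mixed, and over 6 genes the median was 0.06 for lnc57Rik KO and 0.04 for lncGM1082 KO over WT.

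Fatty acid synthesis and SREBP1 targets had a median log2 fold of 0.30 over 14 genes in the lnc57Rik KO library, with 12 above 0 and 2 called higher, against 64.1% of Ensembl rows above 0 and 3.39% of all rows called higher. These were Scd1, a stearoyl-CoA desaturase, and Fads2, a desaturase of polyunsaturated fatty acids. Scd1 had 11.8 FPKM in the lnc57Rik KO, 1.70 in the lncGM1082 KO and 2.13 in the WT library. Fads2 had 37.7, 17.3 and 17.2 FPKM in the same order. Their log2 folds in the lnc57Rik KO library over WT were 2.03 and 1.09, and neither gene had whole fragment counts or an interval. Fasn and Acly were higher in the same library, as given above. In the lncGM1082 KO library 11 of 14 genes of the list were below 0, against 47.9% of Ensembl rows, its median was -0.09 and 0 were called. Its lowest fold was -0.46 for Mid1ip1, which binds acetyl-CoA carboxylase. Mid1ip1 had 4.83 FPKM in the lnc57Rik KO, 2.60 in the lncGM1082 KO and 3.94 in the WT library.

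Of the sterol transport genes 10 of 12 were above 0 in the lncGM1082 KO library, against 52.1% of Ensembl rows, with a median of 0.16. Mylip, a ubiquitin ligase induced by the sterol sensor LXR, had 7.45 FPKM in the lnc57Rik KO, 7.07 in the lncGM1082 KO and 3.46 in the WT library, with ratios to WT of 2.15 (1.82 to 2.55) and 2.04 (1.72 to 2.42). Nr1h3, which encodes a form of LXR, had 1.90 FPKM in the lnc57Rik KO, 1.57 in the lncGM1082 KO and 0.710 in the WT library. Its ratios to WT were 2.67 (1.77 to 4.13) and 2.21 (1.44 to 3.44). In the lnc57Rik KO library the median was 0.19 over 12 genes. Abcg1, a sterol exporter, was the 1 gene called higher there, against 3.39% of all rows. It had 27.6 FPKM in the lnc57Rik KO, 18.7 in the lncGM1082 KO and 13.3 in the WT library. Its log2 folds to WT were 1.01 and 0.47, and it had no interval. Abca1, another exporter, was the gene of this list furthest apart between the knockouts, with 114 FPKM in the lncGM1082 KO library and 48.0 in the lnc57Rik KO one, a ratio of 2.37 (2.31 to 2.43), and it had 84.5 FPKM in WT.

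Among genes of sterol esterification and oxidation, 1 of 5 was called lower in the lncGM1082 KO library, against 0.946% of all rows. This was Ch25h, which makes the hydroxylated sterol that restrains SREBP activation. Ch25h had 0.932 FPKM in the lncGM1082 KO library and 3.37 FPKM in WT (log2 fold -1.18), and 3.45 FPKM in the lnc57Rik KO library. It had no whole fragment counts and so no interval. Nceh1, a hydrolase of cholesteryl esters, had 7.30 FPKM in the lnc57Rik KO, 6.96 in the lncGM1082 KO and 3.82 in the WT library. Over 13 prenyl use genes the median log2 fold was 0.17 for lnc57Rik KO and 0.02 for lncGM1082 KO over WT. Fntb, a farnesyltransferase subunit, had 2.94 FPKM in the lnc57Rik KO, 1.41 in the lncGM1082 KO and 1.64 in the WT library. Over 13 genes of SREBP and reductase turnover the median was 0.11 for lnc57Rik KO and 0.03 for lncGM1082 KO. Trib1, a pseudokinase, had the lowest fold in the lnc57Rik KO library. Its levels were 13.1 FPKM in that library, 18.4 in the lncGM1082 KO and 22.3 in the WT library.

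**Figure D4:**
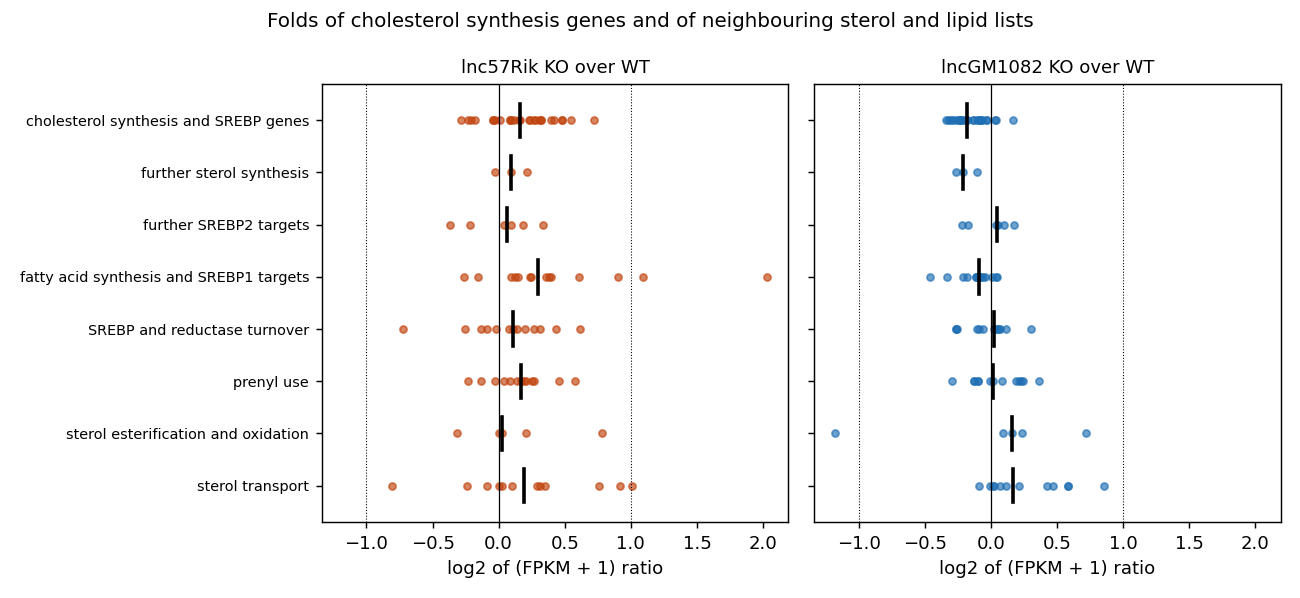
Log2 (FPKM + 1) ratios to WT of the 27 members and of 7 neighbouring lists, 1 point per gene with a mean of at least 1 FPKM, in the lnc57Rik KO (left) and lncGM1082 KO (right) library, with medians as black bars and dotted lines at a log2 fold of 1 in either direction. Scd1 stands out at 2.03 on the left, and on the right the members and the further synthesis enzymes lie mostly below 0 while sterol transport lies mostly above 0.

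Counts of some members could include reads of other genes, and neither the strand setting nor the handling of reads with several matches is stated in the labels. GENCODE transcripts of other genes matched 8 members at 90% identity or more over at least 200 bases. Fdps had the most such copies. The pseudogene Gm3571, 98.9% identical to it over 1062 bases, was listed at 13.2 FPKM in the lnc57Rik KO, 8.31 in the lncGM1082 KO and 8.32 in the WT library, above Fdps itself in each, so the level of Fdps is uncertain. Fdft1 shares 774 bases with Ctsb on the opposite strand, an abundant protease gene with 158, 170 and 145 FPKM in the same order. The other 6 were Acat2, Ggps1, Hmgcs1, Idi1, Lbr and Scap.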

How the data were processed

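The deposited table gives FPKM per gene, made by the authors, in 1 column per library. The tool Bowtie 0.12.2 and the build mm9 are named in the submitters' processing notes, without a role or order. Of 20634 Ensembl rows found in GENCODE M21 (GRCm38), 19570 had the identical position there, so coordinates are given on GRCm38. The counting step is not stated there. Columns were matched to samples by title. FPKM were turned back into fragments with summed exon lengths of GENCODE M21. The calculation was run on simulated fragments of genes with 1 transcript. That simulation used the same exon lengths throughout, so it checks the calculation only and cannot show which lengths the authors used. In genes with 1 transcript, 99.0% to 99.2% of low values (under 20 fragments) lay within 0.05 of a whole fragment. In genes with several transcripts, as all members are, the share was 93.2% to 93.6%. Log2 folds use a pseudocount of 1 FPKM, which understates changes of low genes, and rows with a mean of at least 1 FPKM over the 3 libraries. A gene was called at an absolute log2 fold of 1. Sequences similar to members were found with blastn in GENCODE transcripts. Python 3.11.15, pandas 2.3.3 and scipy 1.17.1 were used.

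The members, the 7 neighbouring lists and the cell type markers were chosen with earlier results of these data known. All members are named. Of each neighbouring list, genes named come from the 2 with the largest absolute log2 fold per comparison, and their levels in the other libraries are given beside them. Genes of the list of further sterol synthesis enzymes are not reported here one by one. The 4 printed promoters were chosen after the values were seen. Alternatives were 2 other pseudocounts, 2 scalings, 2 filters and the sum of rows per symbol.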

Additional observations from a re-analysis of the deposited data

How the results depend on the processing

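In each comparison 0 members passed the log2 fold of 1 under every alternative run, and the sign of the median fold over members did not change. In the lnc57Rik KO library over WT that median was 0.16 as deposited, 0.06 under median ratio scaling and 0.10 with a pseudocount of 5, and Mvd, Cyp51, Srebf1 and Srebf2 changed sign under that scaling. Scaling without the top 20 rows changed the sign of Srebf2 alone. In the lncGM1082 KO library over WT the median was -0.18 as deposited and -0.11 with a pseudocount of 5, and 0 members changed sign under any alternative. With a mean of at least 5 FPKM, where 21 members are left, 1 member was above 0 in place of 3. In the lncGM1082 KO over the lnc57Rik KO library, 4 members were above 0 under median ratio scaling in place of 2, and 1 interval, that of Sqle, lay above 1 in place of 0. Sc5d and Srebf2 changed sign between the knockouts under that scaling, and Sc5d also without the top 20 rows. In the lnc57Rik KO library over WT, 7 intervals lay below 1 under that scaling in place of 4. The log2 fold of Dhcr7 in the lnc57Rik KO library over WT was 0.72 as deposited and 0.40 with a pseudocount of 5. The recount of intervals was added after seeing the data. Summing the rows of a symbol changed nothing, since each member has 1 row. No paired analysis was possible because each genotype has 1 library, and for the same reason no library could be left out. Depth limits Ebp most, where 7 fragments in WT leave a ratio of 1.65 in the lnc57Rik KO library with an interval of 0.584 to 5.02.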

Other observations

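Noncoding transcripts listed by NONCODE overlap several of the genes on the opposite strand. The row across Hmgcs1, with 6190 shared bases of genome, had 3.92 FPKM in the lnc57Rik KO, 2.48 in the lncGM1082 KO and 3.87 in the WT library. The row across Lss had 0.609, 0.258 and 0.603 FPKM in the same order, and an opposite-strand row beside Srebf2 had 2.65, 1.33 and 1.44 FPKM. Without a known strand setting, reads of these rows and of the genes on the other strand cannot be told apart.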
